A study of Danio rerio with 40 samples.

Results

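The comparison described here is that of testes with ovaries in zebrafish that were crowded while their gonads differentiated. Its members are the 10 testes and 10 ovaries whose labels give a rearing density of 66 fish/L, which are 20 of the 40 gonads in the series. Within them, every cytosine covered by more than 5 reads inside 6 amplicons was used. The groups were chosen by sex and density label alone and by no methylation value.

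The fish were of the AB laboratory strain, carried no engineered allele, and were sampled at 90 days of age. The crowded groups were kept at 66 fish/L from 18 to 45 days post-fertilization (dpf), and the remaining 20 gonads, 10 testes and 10 ovaries, came from fish kept at 9 fish/L. Sodium bisulfite turns unmethylated cytosine into a base read as thymine, so after PCR and sequencing the share of reads that still show a cytosine is the methylation level of that position in percent. The study took these fish from a single family, so they are separate but related animals. Each level is an average over a whole gonad, in which different shares of cell types and different methylation within a cell type cannot be told apart.

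Methylation of cytosines next to guanines (CpGs) near a gene's start is a mark that cells copy at each division, and dense methylation there usually goes with low transcription in vertebrates. The amplified genes stand at different points of gonadal sex. Aromatase, encoded by *cyp19a1a*, turns androgens into estrogens and is needed for the ovary. The enzyme encoded by *hsd17b1* makes estradiol from estrone. The enzyme encoded by *cyp11c1* acts in the synthesis of cortisol and of 11-oxygenated androgens, the main androgens of fish, while that encoded by *hsd11b2* inactivates cortisol and also acts in making 11-oxygenated androgens. The transcription factor encoded by *dmrt1* is needed for testis development, and *dnmt1* encodes the enzyme that copies methylation patterns to new DNA strands.

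The positions measured were fixed by the PCR primers, which are shown for the 3 genes whose patterns along the amplicon are described in most detail. They are written in lower case, 5′ to 3′, as the study's primer list gives them, and they fit DNA after bisulfite treatment: 0 of the 6 forward primers hold a c and 0 of the 6 reverse primers hold a g.
hsd17b1 forward: attgtgattaaaaatttataagatgtatga
hsd17b1 reverse: caataatcatacattaaacacaaaataata
cyp11c1 forward: ttttttttgatttgtgtttttttatagtaa
cyp11c1 reverse: aactcctccatatatttatacatac
dmrt1 forward: aatattttttattgtggtgtttgtt
dmrt1 reverse: caaaataacctctcataaccttatc

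On the GRCz11 build, the amplicons lay at chr18:39655109-39655578 (*cyp19a1a*), chr3:17897321-17897746 (*hsd17b1*), chr7:34854510-34854994 (*hsd11b2*), chr16:54645580-54645995 (*cyp11c1*), chr5:44344542-44345024 (*dmrt1*) and chr3:54352441-54352912 (*dnmt1*). All 6 span a promoter, and 4 of them reach at least 123 bp past the transcription start site, whereas the *hsd17b1* and *dnmt1* amplicons end 30 and 16 bp past it. Positions are given below as the distance from the start site by the same primer list, negative before it, and those of *hsd17b1* are good to within 2 bases. Exons and introns were not assigned, since no annotation of this build was used here.

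Depth differed between the sexes. Summed over the median coverage of the 6 amplicons, a testis had 40939.5 to 117884 reads (median 71836) and an ovary 11417 to 90072.5 (median 34217.8). Median coverage of an amplicon in a fish was under 100 reads in 2 cases, 37 reads for *cyp19a1a* in testis G24 and 97 reads for *dmrt1* in ovary G6. The letter and number name the fish as in the sample labels. The study's methods name a deduplication step, but no molecular identifiers are named and the reads of an amplicon start at the same primers, so PCR copies cannot be told apart in the counts and the intervals on read shares given below cover counting error alone. The level of a gene is given in 2 ways. The first is the unweighted mean over all listed cytosines with more than 5 reads, and the other is the mean over the deepest cytosines of an amplicon, taken in the number of its CpGs in the primer list (99 in all). Beside these, the lists held cytosines of low coverage, many of them near 0%, which lowered the first measure.

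The 3 steroid genes *cyp19a1a*, *hsd17b1* and *hsd11b2* were far more methylated in testes than in ovaries, and no testis overlapped with an ovary. Over all listed cytosines, *cyp19a1a* ranged from 59.4 to 74.3% in testes (median 65.5%), against 18.4 to 44.5% in ovaries (median 30.1%). The *hsd17b1* level lay between 47.2 and 79.4% in testes (median 68.2%), against 16.8 to 41.4% in ovaries (median 25.4%). For *hsd11b2*, testes had 51.8 to 63.4% (median 56.6%), against 11.2 to 29.7% in ovaries (median 17.7%). The narrowest gap between the sexes among them was that of *hsd17b1*, at 5.77 percentage points between the lowest testis and the highest ovary. Mean differences, testes minus ovaries, were 35.9 ± 2.98 points for *cyp19a1a*, 39.6 ± 4.18 for *hsd17b1* and 38.1 ± 2.03 for *hsd11b2* (± SE, n = 10 per sex). Each had p = 1.08e-05 in a two-sided exact permutation test over the 184756 splits of the 20 fish, the smallest p the design can give, and an adjusted p of 1.62e-05 over the 6 genes (Benjamini-Hochberg).

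*cyp11c1* was also higher in testes, by a smaller margin. Testes had 60.8 to 80.2% over all listed cytosines (median 74.8%), against 45.7 to 63.7% in ovaries (median 54.1%). Here the sexes touched: testis G5, at 60.8%, lay below ovary G12, at 63.7%, and the other 9 testes lay above every ovary. The difference was 19.8 ± 2.44 points (exact permutation p = 2.17e-05, adjusted p = 2.60e-05).

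The male factor gene *dmrt1* ran the opposite way. Testes were almost free of methylation, with 1.93 to 3.97% (median 2.34%), against 21.6 to 41.2% in ovaries (median 29.5%), with no overlap. Testes averaged 2.61 ± 0.761% and ovaries 29.5 ± 6.60% (SD), which differ by -26.9 ± 2.10 points (exact permutation p = 1.08e-05, adjusted p = 1.62e-05).

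**Figure D1:**
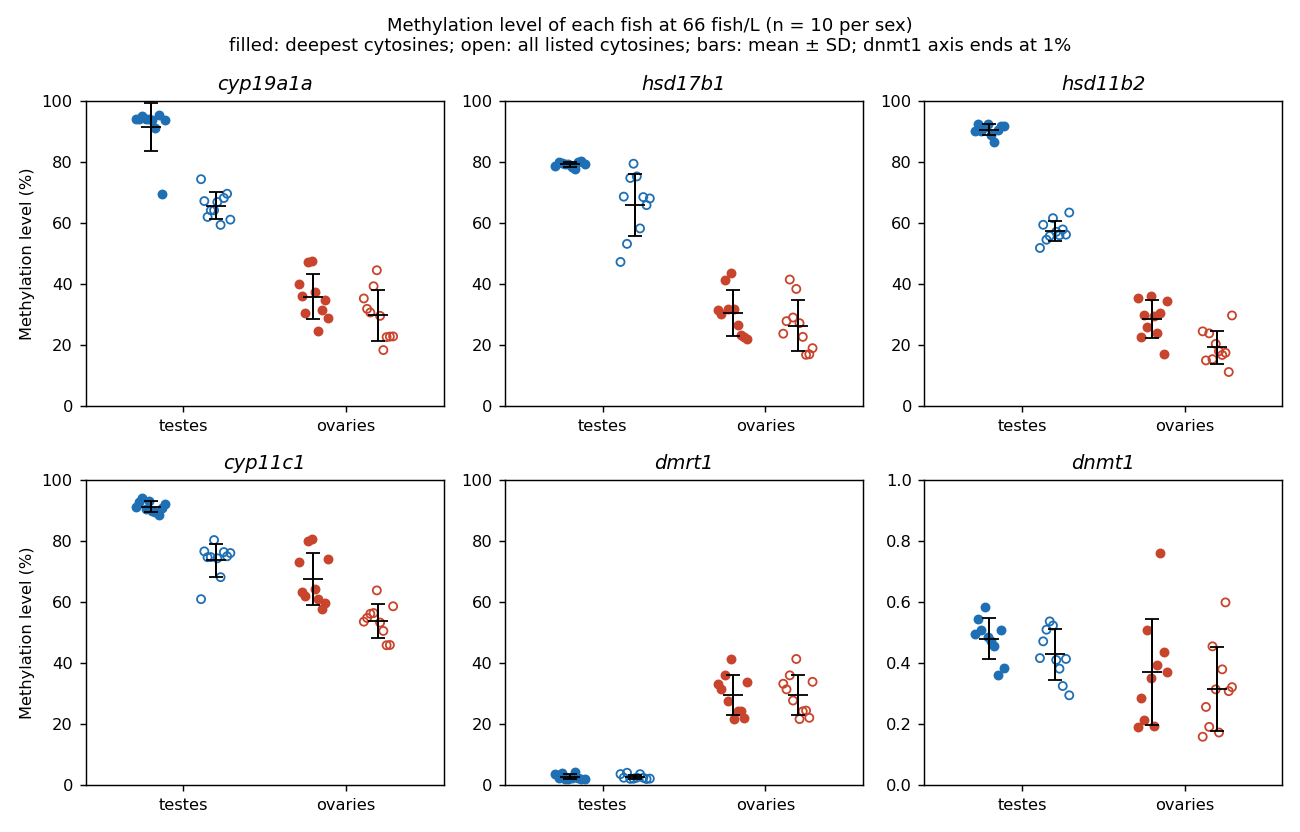
Methylation level (%, vertical axis) of each of the 10 testes (blue, left) and 10 ovaries (red, right) of the 66 fish/L groups, 1 panel per gene; filled points are means over the deepest cytosines, open points over all listed cytosines, and black bars show the mean and SD. Testes lie above ovaries in *cyp19a1a*, *hsd17b1*, *hsd11b2* and *cyp11c1* and below them in *dmrt1*, and the *dnmt1* panel, whose axis ends at 1%, shows overlapping groups.

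Restricting the average to the deepest cytosines widened the gaps of the 4 steroid genes, and no testis then overlapped with an ovary in any of the 5 genes other than *dnmt1*. *hsd11b2* averaged 90.6 ± 1.84% in testes and 28.5 ± 6.16% in ovaries, and *hsd17b1* averaged 79.3 ± 0.845% in testes and 30.5 ± 7.41% in ovaries (SD, n = 10 each). In *cyp11c1* the means were 91.1 ± 1.78% in testes and 67.5 ± 8.54% in ovaries. For *cyp19a1a*, testes averaged 91.4 ± 7.78% and ovaries 35.9 ± 7.48%. Testis G24, read 37 times, was the low one at 69.5%, and the other 9 testes lay between 91.0 and 95.4% and averaged 93.9 ± 1.25%. With the deepest cytosines the 5 differences each had an exact permutation p of 1.08e-05.

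Depth moved with the level over all listed cytosines within a sex. Of 12 relations between a gene's median coverage and its level (6 genes in each sex, 10 fish each), *hsd11b2* in testes had Pearson's r = -0.85 (permutation p = 0.00154, adjusted p = 0.0185) and Spearman's rho = -0.87 (permutation p = 0.00232, adjusted p = 0.0139), with r = -0.68 without the 2 fish farthest from the median. *hsd17b1* in testes (r = -0.82, permutation p = 0.00391, adjusted p = 0.0235; rho = -0.79, permutation p = 0.00815, adjusted p = 0.0244) and *cyp19a1a* in ovaries (r = -0.75, permutation p = 0.0146, adjusted p = 0.0422; rho = -0.81, permutation p = 0.00709, adjusted p = 0.0244) passed by both measures as well, with r = -0.66 and r = -0.69 without the 2 farthest fish. Fish read more deeply listed lower levels in these genes, and 3 further relations (*cyp19a1a* and *cyp11c1* in testes, *hsd11b2* in ovaries) passed by 1 of the 2 measures. At the deepest cytosines 0 of the 12 relations passed after adjustment, so levels between fish of 1 sex are compared below mainly at those cytosines.

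Site by site, 117 cytosines had at least 6 fish of each sex and were tested, and 81 of them (69.2%) differed between testes and ovaries at an adjusted p under 0.05 over all 117. Of these, 57 (48.7% of those tested) were higher in testes and 24 (20.5%) were lower in testes. At 60 cytosines (51.3%) the sexes did not overlap. The 24 lower in testes were the whole *dmrt1* amplicon, and the other genes gave 15 of 18 (*cyp19a1a*), 5 of 7 (*hsd17b1*), 12 of 16 (*hsd11b2*), 15 of 23 (*cyp11c1*) and 10 of 29 (*dnmt1*), each of them higher in testes. The calls in *hsd11b2* include -303 (34854935), where both sexes were near 0, with means of 0.341% in testes and 0.141% in ovaries. At such levels, low methylation and cytosines left unconverted by bisulfite cannot be told apart. Among the 99 deepest cytosines, 78 were called.

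In *cyp19a1a* the difference was nearly even along the amplicon. At its 15 deepest cytosines, site means lay between 88.9 and 93.4% in testes and between 30.1 and 44.2% in ovaries, and all 15 were called with no overlap. The widest gap was at -152 (position 39655404), where testes had 62.2 to 93.4% (median 92.0%) and ovaries 15.4 to 45.0% (median 29.1%), a difference of 58.8 points (adjusted p = 2.15e-05, exact permutation). The 3 remaining cytosines tested, all of low coverage, were at or near 0% in both sexes.

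In *hsd11b2* the mean level was lower before the start site than after it, more so in ovaries. Ovary site means were 24.5% at -138, 36.7% at +36, 41.4% at +65 and 28.7% at +93, so no step is placed at the start site. Before the start site the 5 deepest cytosines averaged 88.9 ± 2.25% in testes and 21.5 ± 6.005% in ovaries, and after it the 4 deepest averaged 92.6 ± 1.54% in testes and 37.3 ± 7.48% in ovaries (SD). Within a fish, the level before minus the level after was -3.68 ± 1.40 points in testes and -15.8 ± 5.30 points in ovaries, negative in all 20 fish. The sexes did not overlap in this measure (exact permutation p = 1.08e-05, adjusted p = 2.17e-05 over 4 genes). The measure was chosen for all 4 genes after the values were seen, so these p-values are not those of a planned test. At -266 (34854898) testes had 85.0 to 92.6% and ovaries 8.15 to 27.9%, a difference of 70.7 points. A shallower cytosine at -280 (34854912), covered in 9 testes and 8 ovaries, had the largest difference among the 117, 70.8 points.

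The profile of *cyp11c1* parted the sexes most clearly in shape. Testes were flat, between 91.3 and 96.9% at 18 of the 19 deepest cytosines, whereas ovaries rose unevenly along the amplicon. At -64 (54645858) testes had 86.5 to 95.8% (median 91.6%) and ovaries 8.08 to 73.1% (median 32.2%), a difference of 57.9 points (adjusted p = 2.15e-05, exact permutation). At -7 (54645801) the means were 93.9 ± 3.002% in testes and 45.1 ± 22.3% in ovaries. At +190 (54645605), a site chosen after its values were seen, testes averaged 96.8 ± 1.58% and ovaries 97.0 ± 3.29%, and the difference of -0.21 points did not pass (adjusted p = 0.977, exact permutation). Before minus after the start site, likewise chosen after the values were seen, was 1.72 ± 1.96 points in testes, with 1 of 10 negative. In ovaries it was -31.6 ± 15.02 points, with all 10 negative and a range of -54.6 to -5.42. The sexes differed in it (exact permutation p = 1.08e-05, adjusted p = 2.17e-05). The gap between the sexes was thus 53.4 points over the 2 cytosines before the start site and 20.04 points over the 17 after it.

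The remaining *cyp11c1* cytosine, at +74 (54645721), was low in both sexes. It had 27.6 to 37.3% in testes (median 30.6%) and 6.11 to 56.3% in ovaries (median 24.1%), although the cytosine 4 bases before it, at +70, averaged 94.9% in testes and 67.1% in ovaries. Its means of 31.6 ± 3.30% in testes and 27.7 ± 15.8% in ovaries were not distinguished (adjusted p = 0.561, exact permutation). Ovaries spread over a range of this gene that testes did not use: at +70 (54645725) the SD between fish was 1.90 points in testes and 23.8 points in ovaries, the largest among the 117 sites in ovaries.

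**Figure D2:**
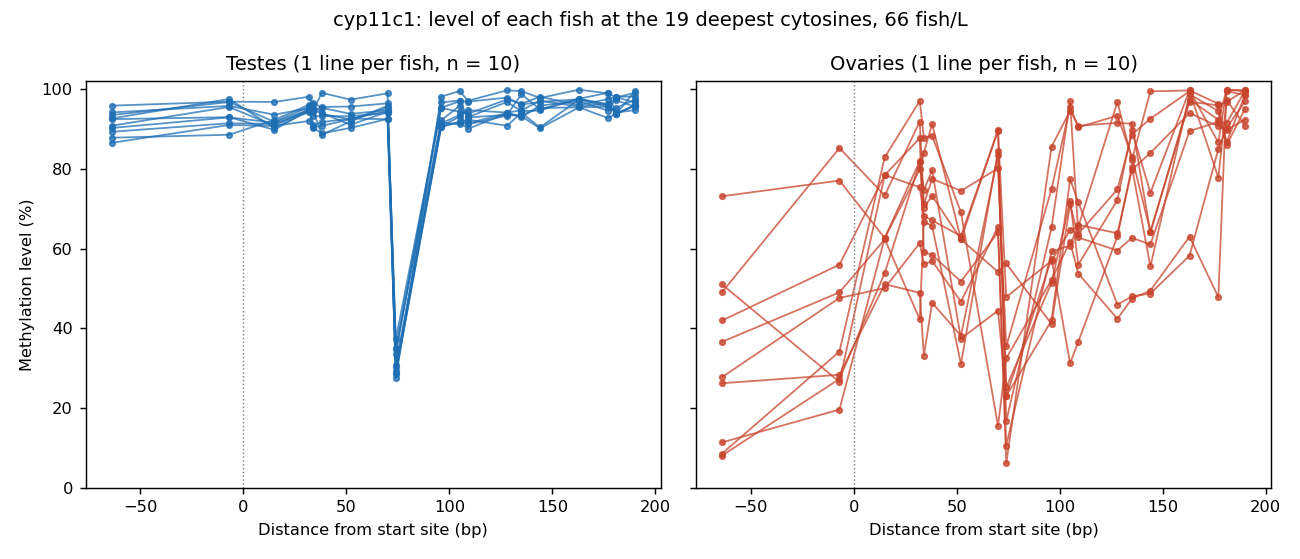
*cyp11c1* methylation (%) against the distance from the start site (bp) at the 19 deepest cytosines, 1 line per fish at 66 fish/L, testes on the left and ovaries on the right. Testis lines run together above 86.5% apart from the dip at +74, and ovary lines fan out from 8.08 to 73.1% at -64 and meet near 97% at +190.

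**Figure D3:**
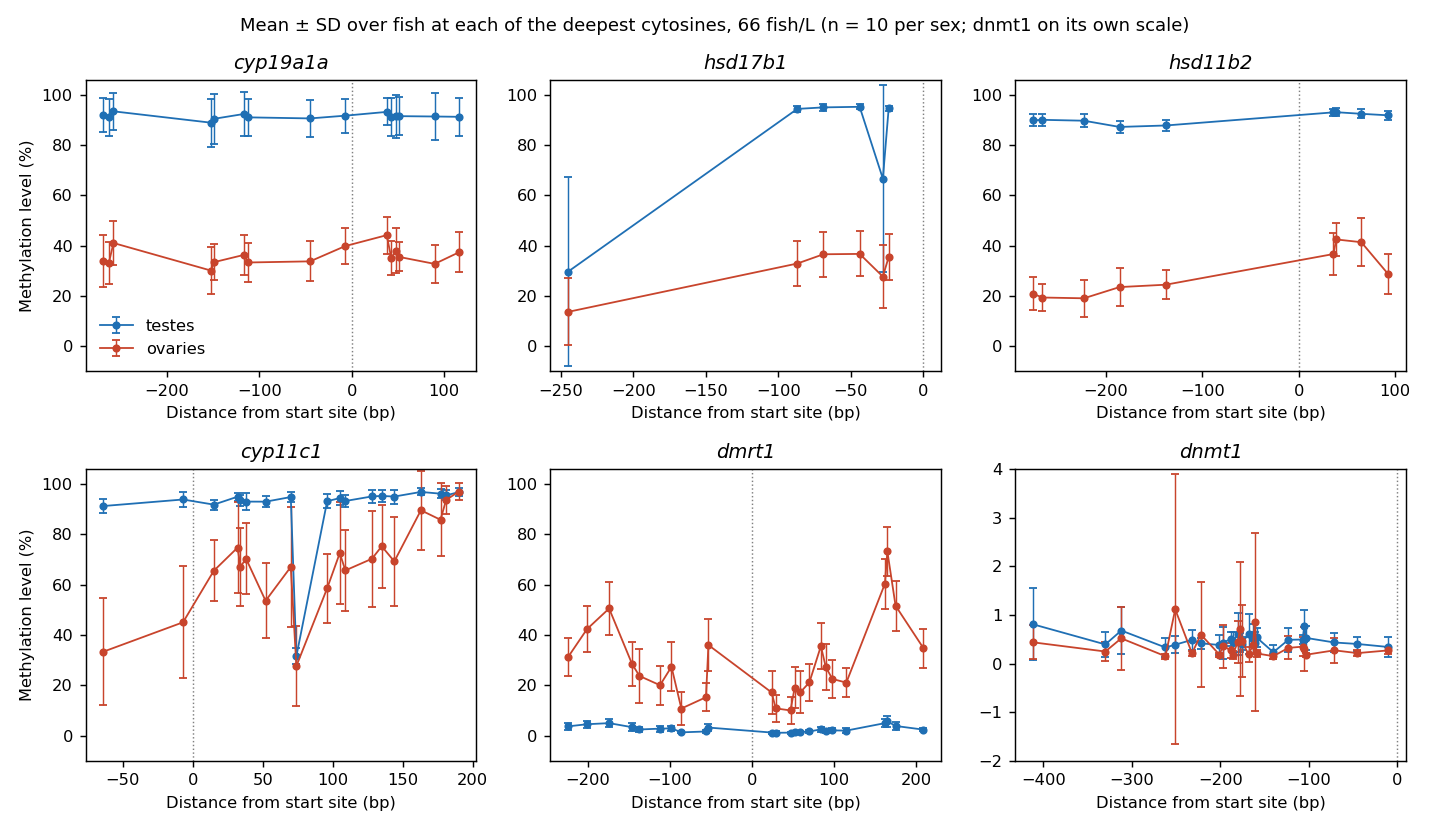
Mean methylation (%) and SD over the 10 testes (blue) and 10 ovaries (red) at each of the deepest cytosines, against the distance from the start site (bp, dotted line at 0), 1 panel per gene, with *dnmt1* on its own scale. The gap is even in *cyp19a1a*, is smaller on average after the start site in *hsd11b2* and *cyp11c1*, and follows the ovary peaks in *dmrt1*. SD bars that pass 0 or 100% are drawn in full.

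In *dmrt1*, the ovary profile rose and dipped while testes stayed near 0. The peak was at +165 (44344955), where testes had 3.97 to 10.2% (median 4.67%) and ovaries 58.3 to 90.5% (median 73.3%), a difference of -67.5 points (adjusted p = 2.15e-05, exact permutation). Its neighbours at +162 and +175 averaged 4.97% and 3.85% in testes, against 60.4% and 51.6% in ovaries. The lowest ovary mean was at +47 (44344837), with 1.19 ± 0.442% in testes and 10.02 ± 5.40% in ovaries (difference -8.84 points, adjusted p = 4.15e-05), 1 of the 2 *dmrt1* cytosines where a testis overlapped with an ovary. The testis profile was highest where the ovary profile was: +165 was the top cytosine of both sexes, and every testis mean was between 1.14 and 5.71%. Before and after the start site the levels were close, 3.09% before and 2.38% after in testes, and 28.6% before and 30.1% after in ovaries.

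*hsd17b1* was the gene in which fish of 1 sex differed in kind. Its 6 deepest cytosines all lie before the start site, and at 4 of them testes lay close together while ovaries spread more widely: at -87, -69, -44 and -24 the mean over these 4 lay between 92.9 and 96.0% in testes (mean 94.8 ± 1.11%) and between 25.8 and 50.8% in ovaries (mean 35.4 ± 8.79%). Differences at the 4 sites ran from 58.4 to 61.5 points (adjusted p = 2.15e-05 each, exact permutation), with no overlap. The other 2 cytosines, at -28 (17897380) and -245 (17897597), had intermediate means, and fish of the same sex differed widely there.

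At -28, testes G5, G8, G10, G21, G23 and G25 had 95.6, 96.5, 96.5, 92.7, 95.4 and 96.2%, and the same 6 fish had 0.414, 0.326, 0.315, 1.42, 0.884 and 0.446% at -245. Testes G13, G15, G20 and G24 instead had 20.3, 28.7, 24.4 and 20.3% at -28 and 75.8, 67.3, 72.5 and 77.4% at -245. No testis lay between these sets, and a fish that was high at one cytosine was low at the other. The sum of both cytosines was 100.6 to 104.0% of the fish's mean over the other 4 cytosines (median 101.4%). Ovaries showed the same trade at a lower level: the sum was 105.3 to 131.0% of the mean of the other 4 (median 116.8%), and -28 carried 24.3 to 99.5% of it. That share was above 90% in 6 of 10 testes and 4 of 10 ovaries and under 10% in none of the 20 fish. Between 775 and 23276 reads covered these values, and the widest 95% Wilson interval was 6.98 points across, in ovary G6.

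The fish at 9 fish/L gave similar values. Earlier results of these data were known when the sites were chosen, so those fish are no independent check of the pattern. There the sum was 100.3 to 102.6% of the mean of the other 4 cytosines in testes and 105.2 to 141.8% in ovaries. The share of -28 was above 90% in 4 of 10 testes and 6 of 10 ovaries, under 10% in none, and between 19.9 and 49.5% in the other 6 testes. A thymine in the genome and an unmethylated cytosine read alike after bisulfite treatment, and whether sequence differed between the fish at these positions was not tested. The sexes differed at -28 by 38.9 points (adjusted p = 0.0121, exact permutation) and at -245 by 16.0 points (adjusted p = 0.292), with wide overlap at both.

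**Figure D4:**
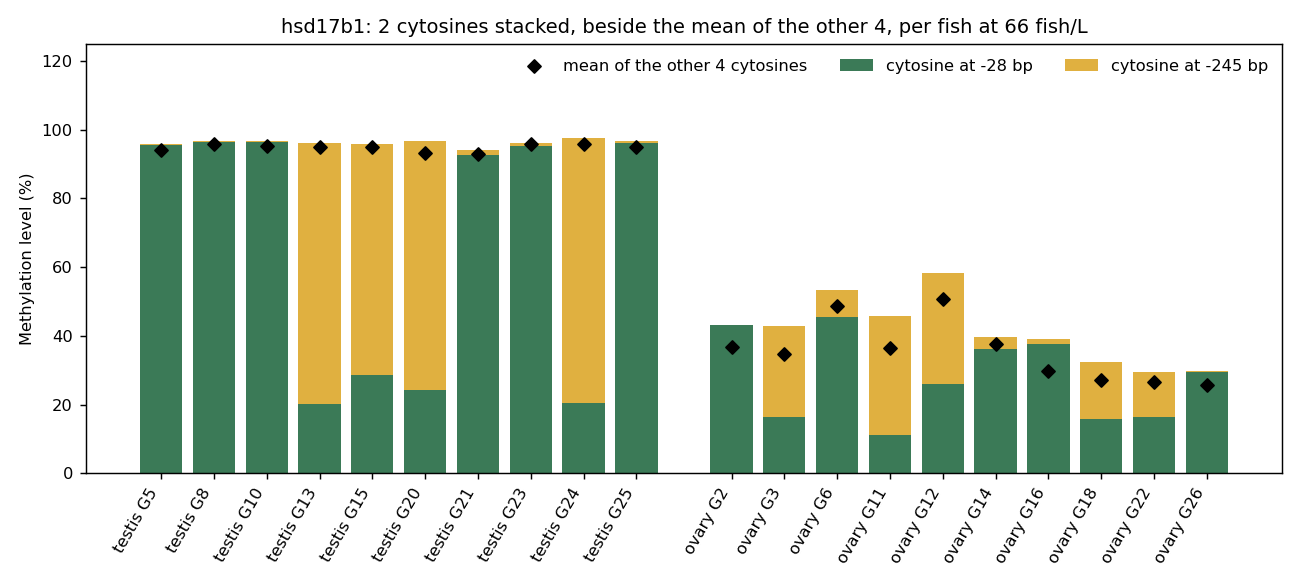
Methylation (%) of the *hsd17b1* cytosines at -28 bp (green) and -245 bp (yellow), stacked for each fish at 66 fish/L, with the mean of the other 4 deepest cytosines as a black diamond; testes on the left, ovaries on the right. In the 10 testes the stack ends at 100.6 to 104.0% of the diamond's value, and the 4 testes G13, G15, G20 and G24 are mostly yellow.

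*dnmt1* was nearly unmethylated in both sexes. Over all listed cytosines testes had 0.294 to 0.536% (median 0.414%) and ovaries 0.158 to 0.598% (median 0.310%). Averages of 0.427 ± 0.0820% for testes and 0.315 ± 0.137% for ovaries differed by 0.113 ± 0.0504 points (exact permutation p = 0.0393, adjusted p = 0.0393), and the sexes overlapped. The call was lost at the deepest cytosines (0.111 points, adjusted p = 0.0762), and it was also lost on leaving out any of testes G8, G10, G13 and G15 or ovaries G2, G3, G6, G12, G14 and G22, with adjusted p up to 0.0742.

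Single raised cytosines stood out in some fish of both sexes. Of 260 values at the 26 deepest cytosines of each sex, 11 were at or above 1% in testes, in 6 fish, and 11 in ovaries, in the 5 fish G11, G16, G18, G22 and G26. In the other 5 ovaries the mean over these cytosines was close to their median, whereas ovary G18 had a mean of 0.758% and a median of 0.225%. The highest in testes was 2.77% (17 of 613 reads, 95% Wilson interval 1.74 to 4.396%) at -412 in testis G10. In ovaries the highest was 9.02% (2674 of 29661 reads, 8.69 to 9.35%) at -251 in ovary G18, where the other 9 ovaries had at most 0.446%, and the next was 6.01% (273 of 4541 reads, 5.36 to 6.74%) at -161 in ovary G11. The same fish had a further raised value each, 3.68% at -222 in ovary G18 and 2.07% at -312 in ovary G11.

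The typical *dnmt1* cytosine separated the sexes better than the mean. The median over the 26 deepest cytosines of a fish, a measure chosen after the values were seen, was 0.332 to 0.553% in testes and 0.178 to 0.341% in ovaries, and 9 of 10 testes lay above every ovary. It averaged 0.429 ± 0.0705% in testes and 0.226 ± 0.0460% in ovaries (exact permutation p = 2.17e-05), and without any 1 fish the difference stayed between 0.189 and 0.216 points. In the fish at 9 fish/L the same median was 0.376 ± 0.0977% in testes and 0.203 ± 0.0645% in ovaries (exact permutation p = 4.33e-04), and 5 of 10 testes lay above every ovary. Earlier results of these data were known, so those fish are no independent check of the measure. Unconverted cytosines read as methylated ones. The unconverted remainder that the study's stated conversion efficiency leaves is of about the size of these *dnmt1* levels, so low methylation and unconverted cytosines cannot be told apart here, and the part of conversion in the difference was not tested.

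Single *dnmt1* cytosines passed at 10 positions between -262 and -45, all higher in testes. The smallest p was at -159 (54352615), with 0.298 to 0.953% in testes and 0.1002 to 0.327% in ovaries (difference 0.328 points, adjusted p = 4.15e-05, exact permutation). The others were -262, -232, -201, -188, -186, -168, -105, -103 and -45, with differences of 0.180 to 0.469 points and adjusted p up to 0.0234. At 0 of the 29 positions tested were the sexes apart without overlap.

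**Figure D5:**
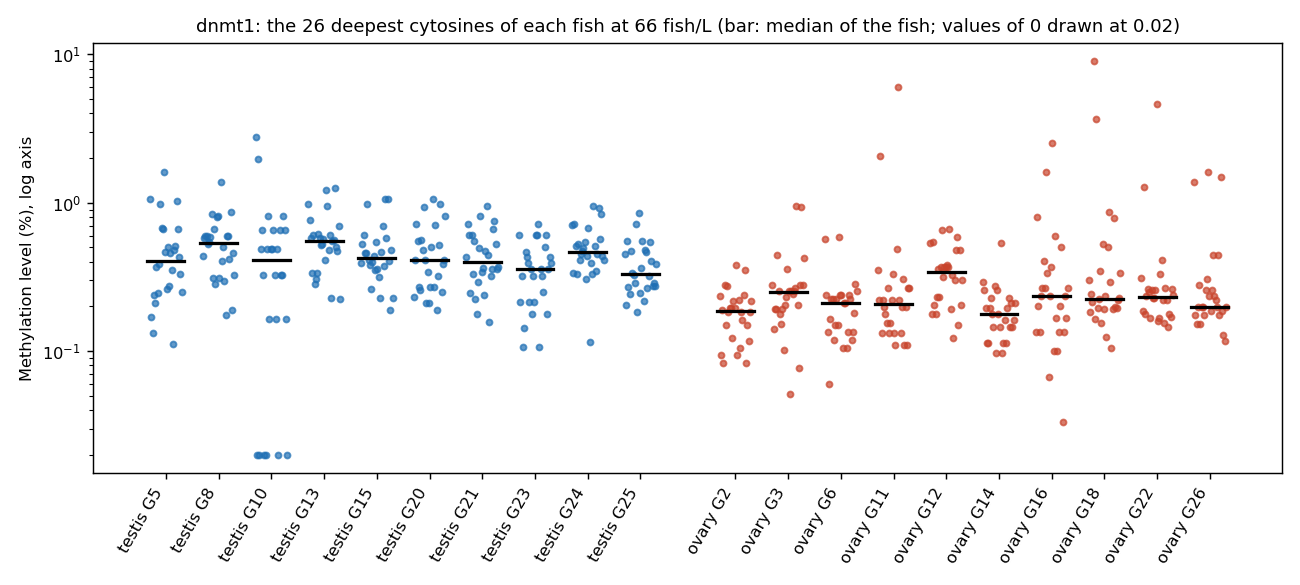
Methylation (%, log axis) of the 26 deepest *dnmt1* cytosines in each fish at 66 fish/L, testes (blue) on the left and ovaries (red) on the right, with the median of each fish as a black bar and values of 0 drawn at 0.02. Medians are 0.332 to 0.553% in testes and 0.178 to 0.341% in ovaries, and the 2 values above 5% are in ovaries G18 and G11.

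Fish of 1 sex also differed among themselves. In *cyp11c1* the median SD between fish at a deepest cytosine was 2.28 points in testes and 15.8 points in ovaries, and in *dmrt1* it was 0.929 points in testes and 8.50 points in ovaries. Spread between fish was wider in ovaries for some genes, and the call depended on how it was measured. The measure tested was the mean absolute deviation of the fish from the median of their sex. For *dmrt1* over all listed cytosines it was 0.540 points in testes and 5.57 points in ovaries (difference -5.03, exact permutation p = 1.08e-05, adjusted p = 6.50e-05), and the other 5 genes did not pass. At the deepest cytosines, *hsd17b1* (0.606 points in testes and 5.54 in ovaries, adjusted p = 0.00942, exact permutation), *hsd11b2* (1.38 in testes and 4.72 in ovaries, adjusted p = 0.0193) and *cyp11c1* (1.40 in testes and 6.83 in ovaries, adjusted p = 0.0130) passed too. In *cyp19a1a*, which did not pass there, the SD was 7.78 points in testes and 7.48 points in ovaries. Without testis G24, read 37 times and left out after the values were seen, it was 1.25 points in testes. Relative to its mean, *dmrt1* varied by 29.1% in testes and 22.4% in ovaries, and on the logit scale, chosen after the values were seen, its spread no longer differed (adjusted p = 0.587). On that scale *hsd17b1* at the deepest cytosines still did (adjusted p = 0.0322), whereas *hsd11b2* and *cyp11c1* at the deepest cytosines did not pass. Both *hsd17b1* calls are of the fish mean, in which -28 and -245 offset each other. At -28 the SD between fish was 37.3 points in testes and 12.5 points in ovaries. At -245 it was 37.6 points in testes and 13.3 points in ovaries, so testes spread more widely in points at these cytosines. Testis means were also higher there, and the share of -28 in the sum ranged widely in both sexes (20.8 to 99.7% in testes, 24.3 to 99.5% in ovaries). Fish levels at the deepest cytosines varied less in testes at 9 fish/L too (not tested). The SDs there, testes first, were 0.629 and 6.15 points for *hsd17b1*, 2.11 and 7.87 for *hsd11b2*, 1.86 and 10.3 for *cyp11c1*, and 1.16 and 8.80 for *dmrt1*.

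Whether a fish was high or low as a whole differed by gene. Of the variation around the site means at the deepest cytosines, the share that was common to all sites of a fish was 96.8% in testes and 86.4% in ovaries for *cyp19a1a*. Without testis G24, left out after the values were seen, the share in *cyp19a1a* was 71.7% in testes. It was 79.1% in testes and 70.8% in ovaries for *hsd11b2*. For *dmrt1* it was 60.8% in testes and 61.0% in ovaries. In *cyp11c1* it came to 54.1% in testes and 26.6% in ovaries, so that ovaries differed there mostly in pattern. For *hsd17b1*, where -28 and -245 offset each other, it was 0.152% in testes and 50.4% in ovaries, and for *dnmt1* 5.47% in testes and 4.89% in ovaries. Sites that vary independently also give a share above 0, the larger the fewer the sites (6 in *hsd17b1*, 26 in *dnmt1*). That baseline was not taken off, so a small share need not mean a common part.

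Ovary G12 ranked highest of the 10 ovaries in all 5 genes other than *dnmt1* at the deepest cytosines, with 47.5% in *cyp19a1a*, 43.6% in *hsd17b1*, 35.9% in *hsd11b2*, 80.5% in *cyp11c1* and 41.2% in *dmrt1*. The next ovary was close in *cyp19a1a* (G11, 47.1%), *hsd11b2* (G2, 35.5%) and *cyp11c1* (G11, 79.9%). Over all listed cytosines G12 had rank 2 in *hsd17b1* and rank 4 in *hsd11b2*. At the deepest cytosines, ovaries G16 and G22 were each among the lowest 3 in 4 of the 5 genes. The same held within testes for G20 and G21. In testes, the first rank of these 5 genes went to 5 different fish. Across fish, the levels of 2 genes were compared in 15 pairs per sex, and of these 30 relations 0 passed after adjustment, over all listed or at the deepest cytosines. The strongest in ovaries over all listed cytosines joined *cyp11c1* with *dmrt1* (r = 0.83, permutation p = 0.00263, adjusted p = 0.0614; rho = 0.78, permutation p = 0.0104, adjusted p = 0.152; r = 0.72 without the 2 farthest fish), and at the deepest cytosines the same pair had r = 0.60 (permutation p = 0.0691, adjusted p = 0.345; rho = 0.54, permutation p = 0.115, adjusted p = 0.434; r = 0.59 without the 2 farthest fish). The strongest in testes over all listed cytosines joined *hsd17b1* with *dmrt1* (r = -0.85, permutation p = 0.00418, adjusted p = 0.0614; rho = -0.54, permutation p = 0.114, adjusted p = 0.285; r = -0.67 without the 2 farthest fish), where depth moved with the *hsd17b1* level, and at the deepest cytosines it had r = -0.54 (permutation p = 0.104, adjusted p = 0.401; rho = -0.54, permutation p = 0.112, adjusted p = 0.434; r = -0.37 without the 2 farthest fish).

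The sex difference after crowding was set against that of the 20 fish at 9 fish/L by permuting the residuals of the additive model (100000 resamples). The study set density by tank, and the tank of a fish is not in the labels used here. Density and tank can therefore not be told apart in this comparison. For *cyp19a1a* the difference of testes minus ovaries was 35.9 points at 66 fish/L and 37.7 points at 9 fish/L, for *hsd11b2* 38.1 points at 66 fish/L and 38.8 at 9 fish/L, and for *dmrt1* -26.9 at 66 fish/L and -30.9 at 9 fish/L. With all fish, none of the 6 genes passed, and the smallest permutation p was that of *dnmt1* (0.113 points at 66 fish/L and -0.0927 points at 9 fish/L, p = 0.0517, adjusted p = 0.31). Of 114 cytosines tested in this way 0 (0%) passed after adjustment, and 5 had an unadjusted permutation p under 0.05. The smallest of those was at the *dmrt1* cytosine +162 (44344952), where the sexes differed by -55.4 points at 66 fish/L and by -68.7 points at 9 fish/L (permutation p = 0.00697, adjusted p = 0.795). Depth was uneven here: median *dmrt1* coverage was 97 to 5627.5 reads (median 1022) in ovaries at 66 fish/L and 9 to 1607 reads (median 69) in ovaries at 9 fish/L. When fish with a median coverage under 100 reads were left out, a choice made after the values were seen, the *dmrt1* difference between densities passed, at 9.58 points (adjusted p = 0.0429, permutation of residuals). It then rested on 9 ovaries at 66 fish/L (mean 28.8%) and 4 ovaries at 9 fish/L (mean 37.9%), and the permutation takes the unequal spread of testes and ovaries as equal.

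The sex differences of *cyp11c1* and *hsd11b2* in the level before minus after the start site were present at both densities. Ovary levels of *cyp11c1* rose unevenly along the amplicon, and the ovary mean of *hsd11b2* at 66 fish/L was back at 28.7% at +93. The measure therefore does not place a step at the start site in either gene. Before minus after the start site of *cyp11c1* was 1.72 points in testes and -31.6 points in ovaries at 66 fish/L, and 1.35 points in testes and -25.8 points in ovaries at 9 fish/L. For *hsd11b2* it was -3.68 points in testes and -15.8 points in ovaries at 66 fish/L, and -3.20 points in testes and -15.3 points in ovaries at 9 fish/L. In both genes the sexes did not overlap at 9 fish/L either (exact permutation p = 1.08e-05). In *cyp19a1a* the sexes differed in this measure by 1.77 points at 66 fish/L (exact permutation p = 0.0293) and by 0.0984 points at 9 fish/L (p = 0.825), and in *dmrt1* by 2.27 points at 66 fish/L (p = 0.134) and by 4.31 points at 9 fish/L (p = 0.0168). Whether these differed between densities was not tested.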

How the data were processed

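Gonads of 40 zebrafish were studied by bisulfite sequencing of PCR amplicons. According to the study's methods and the submitters' processing notes, the authors trimmed reads with Trim Galore 0.4.5, aligned them with Bismark and Bowtie2, removed duplicates and extracted calls in CpG context. The methylated and unmethylated counts they deposited are whole reads for each cytosine, not normalized, and the percent they deposited equals, within 1e-06, methylated reads over all reads in each of the 3620 high-density values. The lists still held cytosines with 5 reads or fewer; of 3255 values inside the amplicons, 2440 were used. The primer list also names *amh*, for which there were 0 values. The members, gene list, site rule and deepest-cytosine set were chosen with earlier results of these data known.

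The fish was the unit. Gene levels were unweighted means over cytosines. Sexes were compared by two-sided exact permutation tests and densities by permuting residuals (100000 resamples), with Benjamini-Hochberg adjustment over 6 genes or over all sites tested. The sites named are, for each gene, the 3 with the largest and the 1 with the smallest sex difference. Also named are, for each gene, the site with the largest SD in each sex and that with the smallest p between densities. Every *dnmt1* site called and the 6 deepest of *hsd17b1* were named too. Sites chosen after their values were seen were -412, -312 and -222 in *dnmt1*, +190 in *cyp11c1*, and -138, +36, +65 and +93 in *hsd11b2*. Site tests were also run on simulated data with 1 spread set for both sexes. That spread was capped below the largest real SDs (37.6 points in testes, 23.8 points in ovaries). The run therefore does not show how the tests behave at sites of larger or unequal spread. Alternatives changed the coverage minimum, cytosines, average, fish, scale and test. Software was matplotlib 3.10.9, pandas 2.3.3, numpy 2.4.6, statsmodels 0.14.6 and scipy 1.17.1 under Python 3.11.15.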

Additional observations from a re-analysis of the deposited data

Results flagged for a closer look

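In groups of 10 fish, a value was picked out when its gap to the nearest fish was a larger part of the group's range than Dixon's 95% critical value, which chance gives in about 1 of 20 groups not chosen by their values. Of 24 groups of gene levels 1 was picked out, and of 70 groups of values at named cytosines 12, of which 4 are testis G24. Some of these cytosines were named for their large SD in a sex, so the rate of 1 in 20 is no measure for them. Intervals are 95% Wilson intervals.

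Testis G24 stood low in *cyp19a1a*, at 69.5% over the deepest cytosines (next testis 91.0%). In this fish it had 73.0% at -269 (27 of 37 reads, 57.02 to 84.6%), 62.2% at -152 and again 62.2% at -149 (23 of 37 reads each, 46.1 to 75.9%), and 64.9% at +90 (24 of 37 reads, 48.8 to 78.2%). Its coverage of 37 reads compares with a median of 25043.5 in testes, and the part of depth was not tested.

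In *dmrt1*, ovary G12 had 48.9% at -137 (next ovary 28.9%), and testis G5 had 2.31% at +47 (next testis 1.34%). In *dnmt1*, testis G21 had 0.943% at -161 (next testis 0.501%), ovary G11 had 6.01% at -161 (next ovary 0.870%), ovary G18 had 9.02% at -251 (next 0.446%), ovary G12 had 0.654% at -188 (next 0.344%), ovary G26 had 1.496% at -105 (next 0.586%) and ovary G3 had 0.280% at -103 (next 0.210%). Such single high *dnmt1* values were also present at 9 fish/L, where 21 of 260 values in testes and 30 of 260 in ovaries were at or above 1%.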

How the results depend on the processing

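The sex differences of *cyp19a1a*, *hsd17b1*, *hsd11b2*, *cyp11c1* and *dmrt1* kept their direction and call under every alternative run. The *dnmt1* difference kept its direction and lost its call at the deepest cytosines and at cytosines passing in every fish (0.111 points, adjusted p = 0.0762 each), with reads pooled within a fish (0.111, adjusted p = 0.0763), by two-way analysis with Tukey's HSD (0.113, adjusted p = 0.441) and in a quasi-binomial model (0.0451, adjusted p = 0.54); leaving out 1 fish gave 0.0952 to 0.144 points. The causes were not tested.

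For spread, testes minus ovaries, *hsd17b1* reversed to -4.93 points at the deepest cytosines, -1.16 with at least 30 reads, -0.0036 on the logit scale and -0.226 on it at the deepest cytosines, and leaving out 1 fish gave -0.605 (without testis G5) to 2.18. *hsd11b2* (-3.34) and *cyp11c1* (-5.43) passed at the deepest cytosines, but not on the logit scale there. *dmrt1* lost its call on the logit scale (-0.0661, and -0.0501 at the deepest cytosines), and *cyp19a1a* reversed to 0.0497 on it at the deepest cytosines. That *cyp19a1a* value includes testis G24, read 37 times, and the spread without this fish was not tested at those cytosines.

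The count of called sites stayed between 78 and 82 over the alternatives and between 81 and 84 without 1 fish. *hsd11b2* -303 (adjusted p = 0.00448) lost its call with neighbouring cytosines merged (0.0139 points, adjusted p = 1) and in the quasi-binomial model (0.103 points, adjusted p = 0.114). *cyp11c1* +181 reversed to -0.569 points in the quasi-binomial model. Leaving out 1 fish gave -0.0398 to 0.241 points at *hsd11b2* +24, 0 to 0.379 at *dnmt1* -223, -0.520 to 0.136 at *dnmt1* -161 (0.136 without ovary G11) and -0.840 to 0.149 at *dnmt1* -251 (0.149, adjusted p = 0.0468, without ovary G18). The difference between densities was 1.05 points for *cyp19a1a* and 1.21 points for *hsd17b1* at the deepest cytosines, opposite in sign to those over all listed cytosines; that of *dmrt1* passed without fish under 100 reads (9.58 points, adjusted p = 0.0429).

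No paired analysis was possible because testes and ovaries at 66 fish/L share 0 code numbers. Between densities, 4 numbers per sex recur. Of 8 same-numbered pairs, 2 deviated together (correlation over 0.1), and the 8 correlations ran from -0.498 to 0.783. So wide a spread neither shows nor excludes that the numbers pair the fish, and the fish were treated as unpaired. With the replicate block, the density difference of *cyp11c1* was -8.23 points (adjusted p = 0.48). An alternative limited to CpGs of the genome sequence was not run, since no sequence of that build was used here. Depth limited *cyp19a1a* in testis G24 and *dmrt1* in ovary G6 and in ovaries at 9 fish/L.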
